A study of Mus musculus with 16 samples.

Results

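The genes for the protein subunits of the mitochondrial ribosome were followed in germline stem (GS) cells, which are stem cells of the mouse testis grown in culture. The set was every row of the deposited protein-coding table whose symbol is Mrpl or Mrps followed directly by a digit, which gave 78 of 21924 genes. Of these, 77 reached the level needed for testing, a CPM (counts of reads scaled to a fixed total per library) of at least 1 in at least 2 libraries. The set was chosen by symbol alone, so no measured value entered the choice.

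Mitochondria carry their own small genome, and the handful of respiratory chain proteins it encodes are made inside the organelle. The ribosome that makes them has a large subunit, whose genes are mostly named Mrpl, and a small subunit, whose genes are named Mrps. Its RNA comes from the mitochondrial genome, whereas every protein of it is encoded in the nucleus, translated in the cytosol and imported. Some of its proteins have bacterial counterparts and others are found only in mitochondria. The respiratory chain it serves is the main consumer of oxygen in the cell.

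RNA was measured in 16 libraries, 2 for each of 8 groups, all from GS cells kept with GDNF and FGF2 on a layer of mouse embryonic fibroblasts. DBA/2 wild type cells were held at 1% oxygen or at 20% oxygen. Cells of a mixed 129 x C57BL/6 background, the Hif1a line, were held at 1% or 20% oxygen, both as cells labelled Hif1a KO and as Hif1a wild type cells. The cells labelled Hif1a KO had received AxCANCre, an adenovirus that carries Cre, on the day the hypoxia treatment began, and no label says whether wild type cells received any virus. C57BL/6 cells, the Top1mt line, were held at 1% oxygen as Top1mt KO cells and as Top1mt wild type cells. Low oxygen was set by gassing the cells in plastic bags, and the series text gives 2 days at 1% oxygen. Names of the 1% libraries carry "6d" in the Hif1a line and "2d" in the Top1mt line, and those of the Hif1a line at 1% also carry a letter B that those at 20% lack. What these marks mean is not given, so oxygen level and whatever the letter stands for cannot be told apart. Whether replicates came from separate cultures is not stated either, and p-values measure only the spread between these libraries. Strains differed between the lines, and the DBA/2 libraries carry names of another form than the rest. Line, strain and set of libraries therefore cannot be told apart.

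Libraries held 11942104 to 25659895 reads on the table's genes, so 1 read was worth 0.0390 to 0.0837 CPM. The RNA of the targeted gene was not lower under the KO label in the Hif1a line. Hif1a, the oxygen-sensitive subunit of hypoxia-inducible factor, stood at 618 and 593 CPM in the libraries labelled Hif1a KO at 1% oxygen, against 251 and 251 CPM in Hif1a wild type. At 20% oxygen it stood at 139 and 142 CPM in the libraries labelled Hif1a KO, against 116 and 118 CPM in Hif1a wild type. No fall of the targeted RNA was seen in these libraries, so they are called by their label here. A count over the whole gene cannot show whether a part of it was deleted. The part of the feeder cells in this RNA was not tested. In the Top1mt line, Top1mt, the mitochondrial topoisomerase, stood at 9.99 and 10.96 CPM in Top1mt KO cells, against 32.8 and 34.8 CPM in Top1mt wild type. The 16 germ cell markers were above 0 in every group and summed to between 1831 CPM, in the libraries labelled Hif1a KO at 1% oxygen, and 5383 CPM, in DBA/2 cells at 20%. The 24 markers of the fibroblast feeder layer summed to 62789 CPM in the libraries labelled Hif1a KO at 1% oxygen and 32557 CPM in Hif1a wild type at 1%. With 20% oxygen they summed to 18021 CPM in the libraries labelled Hif1a KO and 12177 CPM in Hif1a wild type. DBA/2 cells held 7464 CPM of them at 1% and 8415 CPM at 20%. In the Top1mt line the sum was 45387 CPM in Top1mt KO cells and 23271 CPM in Top1mt wild type cells. Markers of testis somatic cells summed to at most 57.7 CPM and those of leukocytes to at most 23.5 CPM in any group. The members are expressed by fibroblasts as well as germ cells, and in such bulk libraries fewer cells of a type and less RNA per cell cannot be told apart.

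Of the 78 genes, 51 encode proteins of the large subunit and 26 proteins of the small subunit. The remaining one, Mrps36, bears the name of a ribosomal protein but encodes a part of the 2-oxoglutarate dehydrogenase complex. Of the 77 mitoribosome proteins, 46 have a bacterial counterpart and 31 are specific to mitochondria. The genes lie on 17 chromosomes, with 11 on chromosome 11 and 0 on chromosome X. Tested members ranged in single libraries from 2.88 CPM, for Mrps36 in Hif1a wild type at 1% oxygen, to 115 CPM, for Mrpl37 in Hif1a wild type at 20%. Levels of different genes were compared per kb of annotated exon. On that scale Mrpl28, a large subunit protein with a bacterial counterpart, was highest at a mean of 60.7 CPM per kb over the 16 libraries. Mrpl2, which lies near the catalytic centre of the large subunit, followed with 54.3 CPM per kb, and Mrps12, a protein of the decoding centre, with 39.0 CPM per kb. At the other end stood Mrpl32, which is matured by a protease of the inner membrane, with 2.97 CPM per kb, and Mrpl23, which sits at the exit of the peptide tunnel, with 1.63 CPM per kb. Mrpl53 was below all of them at 0.0716 CPM per kb and was the member that missed the level for testing, with 0 to 0.207 CPM per library and reads in 11 of 16 libraries. Of its exon length, 88.0% is shared on the same strand with the annotated gene Gm42688, and how shared reads were counted is not stated. Same-strand exon overlap touched 8 members and opposite-strand overlap 28. The strand setting of the counting is not stated. Both kinds touched Mrpl3, Mrpl53 and Mrps34. Of the exon length of Mrps34, 37.0% is shared with Nme3 and 63.4% faces exons of Mapk8ip3 on the other strand.

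Summed over all 78 genes, the set took 2388 and 2423 CPM in the libraries labelled Hif1a KO at 1% oxygen, against 3419 and 3436 CPM in the same label at 20%. The mean sum was thus 29.8% lower at 1%. In Hif1a wild type the sum was 3062 and 3033 CPM at 1% oxygen, against 3583 and 3497 CPM at 20%, which is 13.9% lower. In DBA/2 cells the sums were 3344 and 3450 CPM at 1% oxygen, against 3403 and 3432 CPM at 20%, and the libraries overlapped. Top1mt KO cells held 2972 and 2918 CPM at 1% oxygen, against 3185 and 3187 CPM in Top1mt wild type, which is 7.57% lower. Outside DBA/2 cells the libraries of each pair did not overlap as deposited, although no exact permutation test of 2 libraries against 2 can give a p below 0.333. In each pair outside DBA/2 cells the group with the lower member sum had the higher feeder marker sum. The part of the feeder cells in these differences was not tested.

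**Figure D1:**
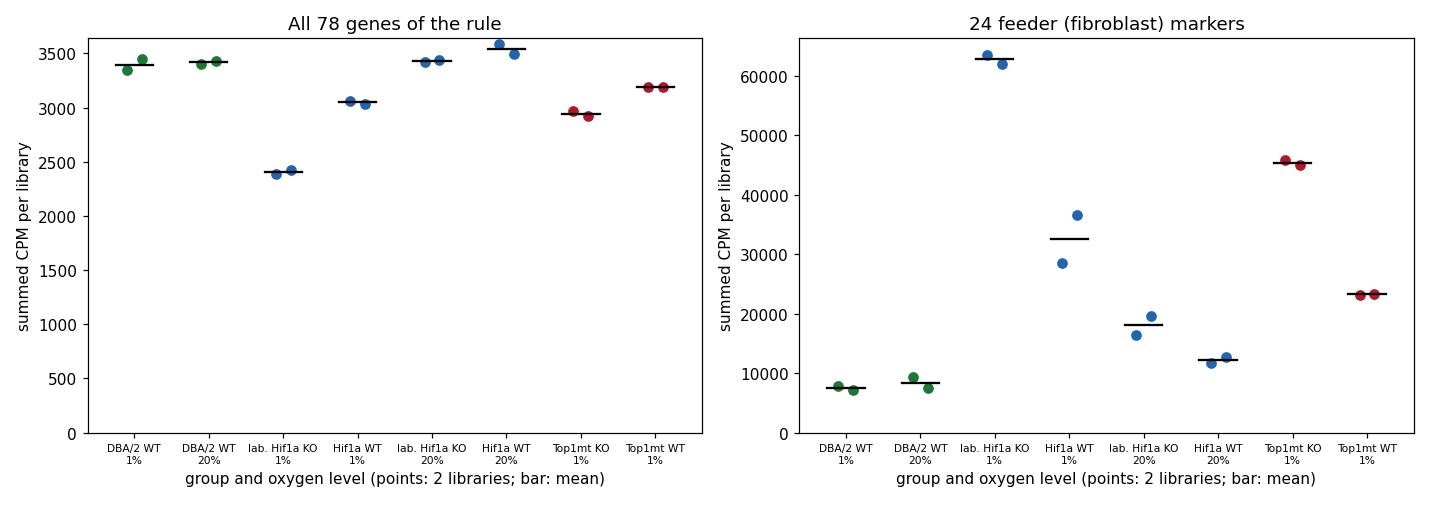
Left, summed CPM (linear axis from 0) of the 78 mitochondrial ribosomal protein genes in each of 16 libraries (points; bars are means of 2 libraries); right, the same for 24 feeder markers. The libraries labelled Hif1a KO at 1% oxygen hold the lowest member sums, 2388 and 2423 CPM, and the highest feeder marker sums.

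Scaling moved the counts in the Hif1a line. With median-of-ratios factors in place of the deposited totals, the member sum was 2972 CPM in the libraries labelled Hif1a KO at 1% oxygen and 3283 CPM at 20%. It was 3085 CPM in Hif1a wild type at 1% and 3373 CPM at 20% under the same factors. In DBA/2 cells the scaled sums were 3135 and 3190 CPM at 1% oxygen, against 3238 and 3257 CPM at 20%, and no longer overlapped. The scaled feeder marker sum in DBA/2 cells was 6953 CPM at 1% and 7998 CPM at 20%, with libraries that overlapped. The factors moved the median log2 fold change of all 14841 tested genes between 1% and 20% oxygen in the libraries labelled Hif1a KO to 0.02, against -0.29 as deposited. For the libraries labelled Hif1a KO against Hif1a wild type at 1% oxygen they moved it to 0.03, against -0.21 as deposited. For the oxygen and labelled KO comparisons the members' median fold change is therefore given below beside that of all genes. It is not set so for the interaction and the comparisons between lines. Scaled counts of members called stand beside those as deposited in each comparison.

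**Figure D2:**
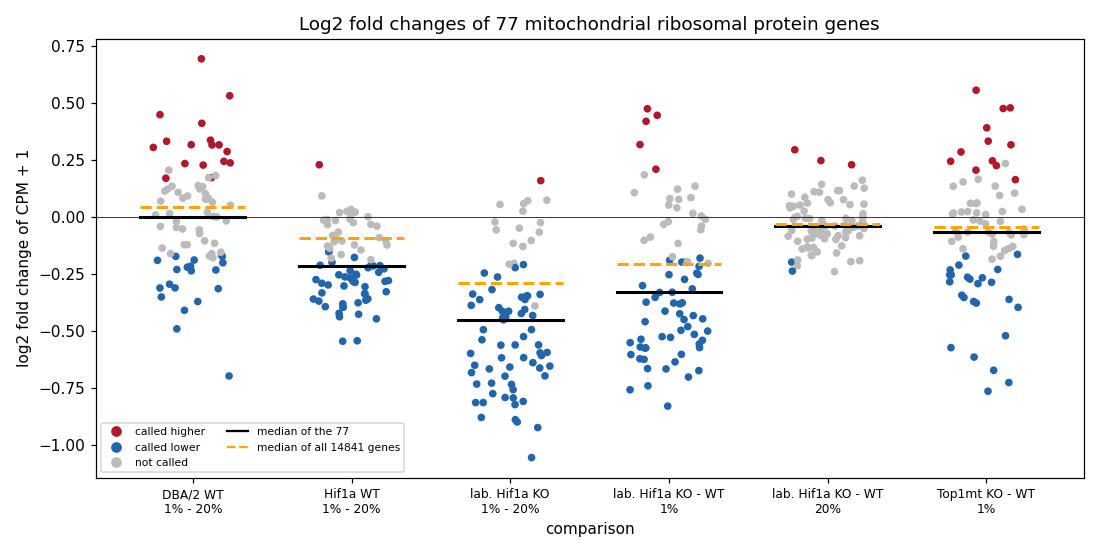
Log2 fold change of CPM + 1 (vertical axis) for each of the 77 tested members in 6 comparisons (horizontal axis); colours mark calls at a limma adjusted p below 0.05, black bars the members' median and dashed bars the median of all 14841 tested genes. The members spread about 0 in DBA/2 cells and lie mostly below 0 for low oxygen in the Hif1a line.

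In DBA/2 cells low oxygen moved single members in both directions. Of the 77 members, 17 were called higher and 19 lower at 1% oxygen, where 31.8% and 25.5% of all tested genes were called higher and lower. The members' median log2 fold change was 0.00075, beside 0.04 for all genes. After median-of-ratios scaling 14 members were called higher and 24 lower, where 28.97% and 27.65% of all genes were called. Fold changes here and below are of CPM + 1, which understates the change of low genes, and p-values are from limma, adjusted over all 14841 genes. Highest among the members was Mrps34, a small subunit protein, with 16.7 and 17.8 CPM at 1% oxygen, against 10.2 and 10.4 CPM at 20%. Its libraries did not overlap, and the log2 fold change was 0.69 ± 0.10 (SE; limma adjusted p = 5.3e-06). Mrps31, a small subunit protein found only in mitochondria, stood at 26.1 and 27.6 CPM at 1% oxygen, against 17.3 and 19.4 CPM at 20%. This gave 0.53 ± 0.10 on the log2 scale (limma adjusted p = 9.5e-05). Mrpl1, a bacterial-type protein of the large subunit's stalk region, also rose, with 49.9 and 53.5 CPM at 1% oxygen, against 35.7 and 39.7 CPM at 20% (log2 fold change 0.45 ± 0.09; limma adjusted p = 0.00032).

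The members that fell in DBA/2 cells were led by Mrpl23, with 5.29 and 5.53 CPM at 1% oxygen, against 8.38 and 10.5 CPM at 20%. It had a log2 fold change of -0.70 ± 0.14 (limma adjusted p = 0.00026), and its libraries did not overlap. Mrps18b, a mitochondrial relative of a bacterial small subunit protein, had 42.5 and 41.6 CPM at 1% oxygen, against 56.1 and 53.4 CPM at 20% (log2 fold change -0.37 ± 0.08; limma adjusted p = 0.00055). The neighbours Mrpl46 and Mrps11, described below, fell beside them.

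Hif1a wild type cells showed a shift of most members to lower values. At 1% oxygen 46 of 77 members were called lower and 1 higher, where 34.6% and 18.4% of all genes were called. The median log2 fold change was -0.22 for the members and -0.09 for all genes. After median-of-ratios scaling 30 members were called lower and 2 higher, where 24.9% and 24.5% of all genes were called, and all 30 were among the 46. Without replicate 1 of Hif1a wild type at 20% oxygen the number called lower was 29. The feeder marker sum was 32557 CPM at 1% oxygen and 12177 CPM at 20% in these cells, and its part in the members' fall was not tested. Mrpl41, a large subunit protein also studied for a role in cell death, had 19.1 and 18.8 CPM at 1% oxygen, against 27.3 and 29.1 CPM at 20%. It gave the lowest log2 fold change of the set here, -0.55 ± 0.08 (limma adjusted p = 6.8e-06). Mrps15, a bacterial-type small subunit protein, had 13.9 and 17.1 CPM at 1% oxygen, against 23.8 and 22.1 CPM at 20% (log2 fold change -0.54 ± 0.10; limma adjusted p = 0.00014). Mrpl58, a peptidyl-tRNA hydrolase that frees stalled mitochondrial ribosomes, had 30.8 and 30.6 CPM at 1% oxygen, against 41.3 and 43.2 CPM at 20%. Its log2 fold change was -0.45 ± 0.08 (limma adjusted p = 6.7e-05), and the libraries of none of these genes overlapped.

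The one member called higher in Hif1a wild type was Mrpl48, a large subunit protein found only in mitochondria. It stood at 33.01 and 31.5 CPM at 1% oxygen, against 27.7 and 27.1 CPM at 20%, with a log2 fold change of 0.23 ± 0.07 (limma adjusted p = 0.014). The call was lost without replicate 1 at 1% oxygen (limma adjusted p = 0.0746) and without replicate 2 at 20% (limma adjusted p = 0.0723).

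The libraries labelled Hif1a KO, in which Hif1a RNA was not lowered, had the most members called lower with low oxygen, as deposited. At 1% oxygen 60 of 77 members were called lower and 1 higher, where 54.7% and 25.2% of all genes were called. The median log2 fold change was -0.45 for the members and -0.29 for all genes. After median-of-ratios scaling the counts were 35 lower and 13 higher, where 35.3% and 40.1% of all genes were called, and the 35 were all among the 60. The members' median was then -0.10, beside 0.02 for all genes. Feeder markers summed to 62789 CPM at 1% oxygen and 18021 CPM at 20%, and germ cell markers to 1831 CPM at 1% and 3745 CPM at 20%. Their part in the members' fall was not tested.

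Lowest of all was Mrpl44, a large subunit protein with a fold related to double-strand-cutting ribonucleases, in which human mutations cause heart muscle disease. It had 23.98 and 24.9 CPM at 1% oxygen in the libraries labelled Hif1a KO, against 55.8 and 48.4 CPM at 20%. The log2 fold change was -1.06 ± 0.07 (limma adjusted p = 8.1e-11), and -0.70 after median-of-ratios scaling. Mrpl16, a bacterial-type protein near the tRNA sites, had 29.3 and 28.8 CPM at 1% oxygen, against 54.1 and 56.2 CPM at 20%. Its log2 fold change of -0.90 ± 0.07 (limma adjusted p = 2.5e-10) became -0.54 after scaling. Mrpl40, a large subunit protein found only in mitochondria, had 29.3 and 29.4 CPM at 1% oxygen, against 56.1 and 54.4 CPM at 20%. Here the log2 fold change was -0.89 ± 0.07 (limma adjusted p = 2.4e-10), and -0.53 after scaling. For Mrpl23 the values were 6.16 and 4.87 CPM at 1% oxygen, against 11.1 and 11.5 CPM at 20% (log2 fold change -0.93 ± 0.14; limma adjusted p = 4.4e-06). The 4 genes stayed called under both scalings, and in each the libraries of the groups were apart.

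Against this fall stood Mrpl10, a bacterial-type protein that anchors the flexible stalk of the large subunit. It had 67.4 and 63.5 CPM at 1% oxygen in the libraries labelled Hif1a KO, against 56.9 and 60.2 CPM at 20%. The log2 fold change was 0.16 ± 0.06 (limma adjusted p = 0.024), or 0.52 after median-of-ratios scaling. As deposited, the call was lost without replicate 1 at 1% oxygen (limma adjusted p = 0.175) or without replicate 1 at 20% (limma adjusted p = 0.157).

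The difference between the oxygen responses of the libraries labelled Hif1a KO and of Hif1a wild type was tested as an interaction. It was called lower for 41 members and higher for 1, where 39% and 19% of all genes were called. With median-of-ratios scaling the interaction was called lower for 12 members and higher for 12, where 20.7% and 33.5% of all genes were called, so the balance of the count depended on the scaling. The interaction for Mrpl40 was -0.68 ± 0.09 (limma adjusted p = 7.7e-06), and -0.40 after scaling. For Mrpl44 it was -0.66 ± 0.10 (limma adjusted p = 2.8e-05), and -0.39 after scaling. For Mrpl10 it was 0.31 ± 0.09 (limma adjusted p = 0.0047), and 0.59 after scaling. These 3 genes kept their call under both scalings. Without 1 library, the number called higher was 2 or 3 in place of 1. It was 2 without replicate 1 of the libraries labelled Hif1a KO at 1% or without replicate 2 of those at 20%, and 3 without replicate 2 of Hif1a wild type at 1%.

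Across the 3 oxygen comparisons, which share no library, 14 members were called lower in each and 0 were called higher in each by limma, where 13.4% and 6.46% of all genes were. With edgeR the number higher in each was 0 as well, and at an unadjusted p below 0.05 it was 0 too. The 14 were Mrpl2, Mrpl20, Mrpl23, Mrpl24, Mrpl37, Mrpl46 and Mrpl58 of the large subunit, Mrps18a, which despite its name belongs to the large subunit as well, and Mrps5, Mrps6, Mrps9, Mrps11, Mrps12 and Mrps18b of the small subunit. They made up 73.7% of the 19 members called lower in DBA/2 cells and 30.4% of the 46 called lower in Hif1a wild type. After median-of-ratios scaling 9 of the 14 were still called lower in each and Mrpl4 was added, where 9.5% of all genes were. Mrps5, Mrps11 and Mrps18b had lost the call in Hif1a wild type, and Mrpl20 and Mrps18a in the libraries labelled Hif1a KO. Without 1 library, 10 to 14 of the 14 were kept, and the fewest were kept without replicate 1 of DBA/2 at 1% oxygen. The members lost changed with the library left out, and were Mrpl2, Mrpl23, Mrpl24, Mrpl58, Mrps5, Mrps6, Mrps11, Mrps12 and Mrps18b. Mrpl23 lost its call in Hif1a wild type without replicate 2 at 1% or either replicate at 20%, with log2 fold changes of -0.38 to -0.43. Across the 77 members the log2 fold changes in Hif1a wild type and in DBA/2 cells had a Spearman correlation of 0.300. The correlation was 0.521 between the libraries labelled Hif1a KO and Hif1a wild type. Both are descriptions across genes, which are not independent, and carry no test.

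A pair of the 14 are neighbours on chromosome 7. Mrpl46 (chromosome 7, 78775236 to 78783531, minus strand, GRCm38) and Mrps11 (chromosome 7, 78783119 to 78792989, plus strand) are transcribed away from one another from a common stretch of DNA, and 12.2% of the exon length of Mrpl46 faces exons of Mrps11. The windows that run from 250 bases before to 50 bases after the RefSeq start of each gene on GRCm38.p6 overlap by 141 bases. They are shown because a pair of members that fell in all 3 oxygen comparisons begins here, and they were picked after the values were seen. Capitals mark the shared bases, each window being written 5′ to 3′ on the strand of its gene, at chr7:78783040-78783339 (minus strand) and chr7:78782881-78783180 (plus strand).
Mrpl46: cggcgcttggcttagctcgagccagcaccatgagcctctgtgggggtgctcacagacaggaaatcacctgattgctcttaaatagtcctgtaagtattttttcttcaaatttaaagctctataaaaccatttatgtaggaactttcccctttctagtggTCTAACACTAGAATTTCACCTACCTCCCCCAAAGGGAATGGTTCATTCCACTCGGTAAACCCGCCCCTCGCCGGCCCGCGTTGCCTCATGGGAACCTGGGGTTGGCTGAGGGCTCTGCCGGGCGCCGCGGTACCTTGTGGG
Mrps11: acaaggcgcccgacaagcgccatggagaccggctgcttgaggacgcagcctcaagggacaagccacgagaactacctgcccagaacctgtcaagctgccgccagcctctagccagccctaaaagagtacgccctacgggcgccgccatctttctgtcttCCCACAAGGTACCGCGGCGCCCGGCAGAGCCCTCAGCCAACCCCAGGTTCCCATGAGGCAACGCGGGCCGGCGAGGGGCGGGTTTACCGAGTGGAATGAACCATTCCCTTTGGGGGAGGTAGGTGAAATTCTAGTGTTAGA

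Mrpl46, a large subunit protein found only in mitochondria, had 29.2 and 30.4 CPM at 1% oxygen, against 42.7 and 41.9 CPM at 20%, in DBA/2 cells. Hif1a wild type cells had 29.9 and 29.9 CPM at 1%, against 40.7 and 41.0 CPM at 20%. Those labelled Hif1a KO had 17.95 and 21.7 CPM at 1%, against 37.3 and 34.1 CPM at 20%. At 1% oxygen it was thus below the 20% libraries in every line that had both. The log2 fold changes were -0.49 ± 0.08 in DBA/2 cells (limma adjusted p = 5.8e-05), -0.44 ± 0.08 in Hif1a wild type (limma adjusted p = 0.00023) and -0.82 ± 0.08 in the libraries labelled Hif1a KO (limma adjusted p = 2.3e-08, and -0.47 on the log2 scale after median-of-ratios scaling). Its neighbour Mrps11, a bacterial-type protein of the small subunit platform, had 26.6 and 30.9 CPM at 1% oxygen, against 38.1 and 38.9 CPM at 20%, in DBA/2 cells. In Hif1a wild type Mrps11 had 32.4 and 36.7 CPM at 1%, against 39.0 and 42.7 CPM at 20%. Those labelled Hif1a KO had 21.9 and 22.8 CPM at 1%, against 36.8 and 40.3 CPM at 20%. The order of the oxygen levels was again the same in each line. Its log2 fold changes were -0.41 ± 0.09 in DBA/2 cells (limma adjusted p = 0.00049), -0.24 ± 0.09 in Hif1a wild type (limma adjusted p = 0.028) and -0.76 ± 0.09 in the libraries labelled Hif1a KO (limma adjusted p = 1.2e-07). The call in Hif1a wild type was lost after median-of-ratios scaling (log2 fold change -0.15), without replicate 1 at 1% oxygen (limma adjusted p = 0.229) and without replicate 2 at 20% (limma adjusted p = 0.204).

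**Figure D3:**
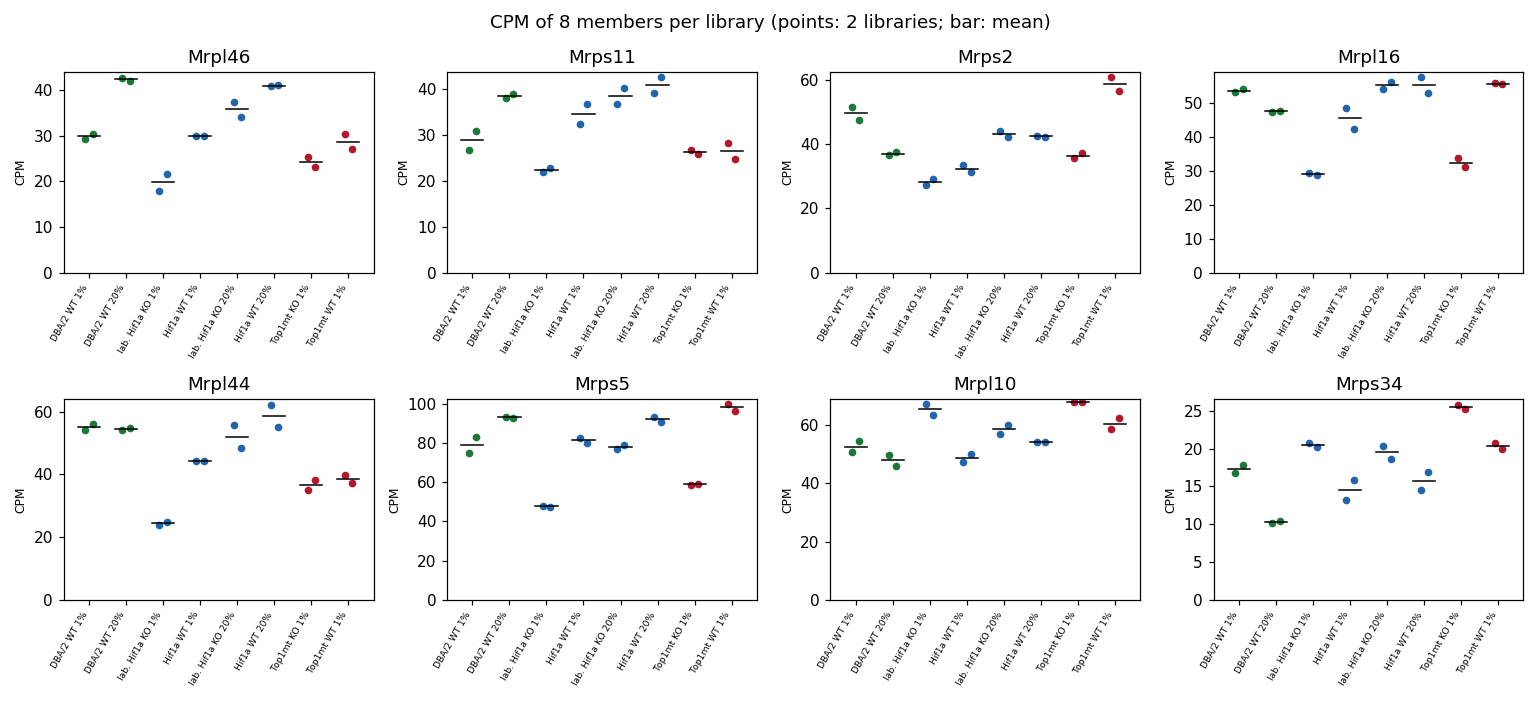
CPM (linear axes from 0) of 8 members in each of the 16 libraries by group (points; bars are means of 2 libraries). Mrpl46 and Mrps11 are lower at 1% than at 20% oxygen wherever both levels were measured, Mrps2 is higher at 1% in DBA/2 cells and lower at 1% in the Hif1a line, and Mrpl10 and Mrps34 are higher in both labelled KO groups at 1% oxygen than in their wild type.

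By contrast, 15 members were called in opposite directions in a pair of the oxygen comparisons, as were 22% of all genes. In 14 of them the DBA/2 cells were called higher, the exception being Mrpl10. Mrps2, a bacterial-type protein of the small subunit, is an example. It had 51.7 and 47.6 CPM at 1% oxygen, against 36.6 and 37.6 CPM at 20%, in DBA/2 cells (log2 fold change 0.41 ± 0.07; limma adjusted p = 3.0e-05). Hif1a wild type cells had 33.5 and 31.4 CPM at 1%, against 42.6 and 42.4 CPM at 20% (log2 fold change -0.38 ± 0.07; limma adjusted p = 7.8e-05). Those labelled Hif1a KO had 27.4 and 29.1 CPM at 1%, against 44.2 and 42.3 CPM at 20% (log2 fold change -0.60 ± 0.07; limma adjusted p = 7.5e-08). The libraries were apart in each comparison, and all 3 calls were kept after median-of-ratios scaling. The remaining ones were Mrpl1, Mrpl15, Mrpl16, Mrpl17, Mrpl30, Mrpl35, Mrpl43, Mrpl45, Mrpl47, Mrpl48, Mrpl50, Mrps30 and Mrps35. For Mrpl16 the rise in DBA/2 cells was small, at 0.17 on the log2 scale (limma adjusted p = 0.040), and its call was lost without any 1 of the 4 libraries (limma adjusted p = 0.0951 to 0.139) and after median-of-ratios scaling. After that scaling 5 of the 15 still had opposite calls, namely Mrpl15, Mrpl35, Mrpl47, Mrps2 and Mrps35, while Mrpl33 and Mrpl54 were added, where 18.7% of all genes had opposite calls. Mrpl17 had then lost its call in DBA/2 cells as well, and Mrpl1, Mrpl30, Mrpl43, Mrpl45, Mrpl48, Mrpl50 and Mrps30 were no longer called lower in the Hif1a line. Mrpl10 was no longer called lower in Hif1a wild type. Of the 5 still opposite after scaling, Mrps35 lost its call in DBA/2 cells, as deposited, without any 1 of the 4 DBA/2 libraries. Mrpl35 lost its call there without replicate 1 at 20%.

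Whether the lines differed was tested on the difference between the oxygen responses of Hif1a wild type and DBA/2 cells. Line, strain and set of libraries cannot be told apart in it, nor can the marks in the names of the Hif1a libraries. This difference was called lower for 30 members and higher for 2, where 30.9% and 15.1% of all genes were called. With median-of-ratios scaling 21 members were called lower and 4 higher, where 20.4% and 20.7% of all genes were called. Mrps34 gave the lowest difference, -0.80 ± 0.14 on the log2 scale (limma adjusted p = 1.0e-04). Its levels were 13.2 and 15.9 CPM at 1% oxygen, against 14.6 and 16.9 CPM at 20%, in Hif1a wild type, and these libraries overlapped, unlike those of DBA/2 cells given above. The difference was -0.79 ± 0.09 for Mrps2 (limma adjusted p = 1.7e-06), -0.72 ± 0.14 for Mrps15 (limma adjusted p = 0.00043) and -0.71 ± 0.13 for Mrps31 (limma adjusted p = 0.00028). Mrpl33 and Mrpl9, both bacterial-type large subunit proteins, were the ones with a higher difference, at 0.32 ± 0.10 (limma adjusted p = 0.012) and 0.31 ± 0.11 (limma adjusted p = 0.021). Both calls were lost without replicate 2 of DBA/2 at 1% oxygen (limma adjusted p = 0.0502 and 0.0674) or replicate 2 of Hif1a wild type at 20% (limma adjusted p = 0.0516 and 0.0560), and that of Mrpl9 also without replicate 1 of DBA/2 at 20% (limma adjusted p = 0.0757). Feeder markers summed to more at 1% than at 20% oxygen in Hif1a wild type and not in DBA/2 cells, and their part in this difference was not tested.

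At 1% oxygen the libraries labelled Hif1a KO were lower than Hif1a wild type for most members as deposited. Of 77 members 50 were called lower and 5 higher, where 49.1% and 28.3% of all genes were called. The median log2 fold change was -0.33 for the members and -0.21 for all genes. After median-of-ratios scaling 29 members were called lower and 23 higher, where 33.6% and 40.1% of all genes were called. The 29 were all among the 50 and the 5 all among the 23. Hif1a RNA itself was higher in these libraries, so the directions given are those of the label and not of a lower Hif1a RNA. Germ cell markers summed to 1831 CPM in the libraries labelled Hif1a KO and 3846 CPM in Hif1a wild type, and feeder markers to 62789 CPM and 32557 CPM in the same groups, and their part was not tested.

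Mrpl44 led the fall, with 23.98 and 24.9 CPM in the libraries labelled Hif1a KO at 1% oxygen, against 44.3 and 44.3 CPM in Hif1a wild type. Its log2 fold change was -0.83 ± 0.07 (limma adjusted p = 3.7e-09), and -0.55 after scaling. Mrps5, a bacterial-type protein next to the mRNA entry of the small subunit, had 47.8 and 47.5 CPM in the libraries labelled Hif1a KO, against 82.6 and 80.2 CPM in Hif1a wild type. This gave -0.76 ± 0.05 on the log2 scale (limma adjusted p = 1.5e-10), and -0.48 after scaling. Mrps22, a small subunit protein found only in mitochondria, had 26.3 and 25.4 CPM in the libraries labelled Hif1a KO, against 43.9 and 41.6 CPM in Hif1a wild type. Its log2 fold change of -0.70 ± 0.07 (limma adjusted p = 4.1e-08) was -0.43 after scaling. Mrpl40 was lower by a like amount, at -0.74 ± 0.07 (limma adjusted p = 4.7e-09). In none of these did the libraries overlap.

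The 5 members called higher in the libraries labelled Hif1a KO were Mrpl10, Mrpl27, Mrpl33, Mrps15 and Mrps34. Mrpl10 had 67.4 and 63.5 CPM in the libraries labelled Hif1a KO at 1% oxygen, against 47.3 and 50.1 CPM in Hif1a wild type. The log2 fold change of Mrpl10 was 0.42 ± 0.06 (limma adjusted p = 3.7e-06), and 0.70 after scaling. Mrps34 had 20.8 and 20.2 CPM in the libraries labelled Hif1a KO, against 13.2 and 15.9 CPM in Hif1a wild type (log2 fold change 0.47 ± 0.10; limma adjusted p = 0.00018). These 2 genes kept their call without any 1 library. Mrpl27, a bacterial-type protein near the catalytic centre, had 12.2 and 15.0 CPM in the libraries labelled Hif1a KO, against 9.04 and 10.4 CPM in Hif1a wild type. For this gene the log2 fold change was 0.44 ± 0.12 (limma adjusted p = 0.0023), and the call was lost without replicate 2 of the libraries labelled Hif1a KO (limma adjusted p = 0.0604). The call of Mrps15 (0.32 ± 0.10; limma adjusted p = 0.0074) was lost without the same library (limma adjusted p = 0.168) or replicate 1 of Hif1a wild type (limma adjusted p = 0.150). That of Mrpl33 (0.21 ± 0.07; limma adjusted p = 0.011) was lost without replicate 1 of the libraries labelled Hif1a KO (limma adjusted p = 0.170) or replicate 1 of Hif1a wild type (limma adjusted p = 0.0632). Without replicate 2 of the libraries labelled Hif1a KO, or without replicate 1 of Hif1a wild type, 3 members were called higher.

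The promoter windows of Mrpl44, which had the lowest fold change between 1% and 20% oxygen in the libraries labelled Hif1a KO, and of Mrpl10, the member called higher there, are printed to set the ends of that range side by side. They come from RefSeq (GRCm38.p6) and were picked after the values were seen. Both are on the plus strand, at chr1:79775768-79776067 for Mrpl44 and chr11:97041332-97041631 for Mrpl10. Capitals mark matches to the motifs named next.
Mrpl44: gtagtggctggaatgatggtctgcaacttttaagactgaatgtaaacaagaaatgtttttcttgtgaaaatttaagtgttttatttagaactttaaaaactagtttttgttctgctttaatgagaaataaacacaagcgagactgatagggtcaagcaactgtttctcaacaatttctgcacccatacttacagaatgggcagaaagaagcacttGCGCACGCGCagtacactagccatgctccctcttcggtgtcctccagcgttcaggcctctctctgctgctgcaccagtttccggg
Mrpl10: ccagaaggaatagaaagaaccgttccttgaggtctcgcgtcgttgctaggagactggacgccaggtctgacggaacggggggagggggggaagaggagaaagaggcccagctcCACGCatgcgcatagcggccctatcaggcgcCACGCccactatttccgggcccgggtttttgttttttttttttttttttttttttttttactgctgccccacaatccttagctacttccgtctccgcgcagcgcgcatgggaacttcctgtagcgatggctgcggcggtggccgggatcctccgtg

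The motifs searched, on both strands, were the palindromic motif of nuclear respiratory factor 1, CCGGAAG for ETS factors such as GABP, CACGTG for E-box factors, and ACGTG or GCGTG for hypoxia-inducible factors. ACGTG lies within CACGTG, and GCGTG can lie within the motif of nuclear respiratory factor 1. The window of Mrpl44 holds the motif of nuclear respiratory factor 1 at bases 216 to 225, which contains a GCGTG on the other strand at bases 219 to 223. That of Mrpl10 holds GCGTG on the other strand at bases 114 to 118 and 145 to 149. RefSeq windows were matched for 69 of the 78 members. Among these, 13 (18.8%) held that motif, against 4.78% of 27025 promoter windows of the same length. CCGGAAG stood in 25 member windows (36.2%), against 9.12% of all. CACGTG stood in 5 (7.25%), against 7.24% of all, and ACGTG or GCGTG in 45 (65.2%), against 43.8% of all. A match is a run of letters and not a site shown to be bound.

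At 20% oxygen the libraries labelled Hif1a KO and Hif1a wild type differed for few members. Of 77, 3 were called higher and 2 lower, where 12.9% and 9.55% of all genes were called. The median log2 fold change was -0.04 for the members and -0.03 for all genes. After median-of-ratios scaling 3 members were again called higher and 2 lower, where 12.95% and 8.56% of all genes were called. The members called were Mrps34, Mrpl33 and Mrpl52, which were higher, and Mrps5 and Mrpl37, which were lower. Mrps34 had 20.3 and 18.7 CPM in the libraries labelled Hif1a KO, against 14.6 and 16.9 CPM in Hif1a wild type (log2 fold change 0.29 ± 0.10; limma adjusted p = 0.035). Mrpl33 had 47.4 and 47.8 CPM in the libraries labelled Hif1a KO, against 41.0 and 39.0 CPM in Hif1a wild type (0.25 ± 0.07; limma adjusted p = 0.016). Mrps5 had 76.8 and 79.3 CPM in the libraries labelled Hif1a KO, against 93.6 and 90.9 CPM in Hif1a wild type (-0.24 ± 0.05; limma adjusted p = 0.0035). Each of the 5 calls depended on the libraries kept. No member was called higher without replicate 2 of the libraries labelled Hif1a KO, and 1 was without replicate 1 of either group. No member was called lower without replicate 1 of Hif1a wild type, where Mrps5 had an adjusted p of 0.0503.

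Top1mt relaxes the DNA of mitochondria, from which the ribosomal RNA of this ribosome is copied, and the Top1mt KO cells allow the protein genes to be read where that enzyme's RNA was lowered. At 1% oxygen 12 of 77 members were called higher and 25 lower in Top1mt KO cells against Top1mt wild type, where 25.2% and 33.2% of all genes were called. The median log2 fold change was -0.07 for the members and -0.04 for all genes. After median-of-ratios scaling 16 members were called higher and 21 lower, where 28.99% and 28.56% of all genes were called. The feeder marker sum was 45387 CPM in Top1mt KO cells and 23271 CPM in Top1mt wild type, the germ cell marker sum 2403 CPM and 3793 CPM in the same groups, and their part was not tested. Mrpl16 was lowest, with 33.7 and 31.1 CPM in Top1mt KO cells, against 56.0 and 55.5 CPM in Top1mt wild type. Its log2 fold change was -0.77 ± 0.07 (limma adjusted p = 1.4e-08). Mrps5 had 58.7 and 59.1 CPM in Top1mt KO cells, against 99.9 and 96.6 CPM in Top1mt wild type (log2 fold change -0.73 ± 0.05; limma adjusted p = 1.1e-09). Mrps2 had 35.7 and 37.2 CPM in Top1mt KO cells, against 60.9 and 56.6 CPM in Top1mt wild type (-0.67 ± 0.07; limma adjusted p = 5.4e-08). The libraries were far apart in each. Mrpl41 had 21.2 and 19.7 CPM in Top1mt KO cells, against 32.1 and 31.6 CPM in Top1mt wild type (-0.62 ± 0.08; limma adjusted p = 1.1e-06). These 4 calls held without any 1 library and under both scalings.

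On the other side, Mrpl27 had 12.6 and 12.3 CPM in Top1mt KO cells, against 8.21 and 8.08 CPM in Top1mt wild type, a log2 fold change of 0.56 ± 0.12 (limma adjusted p = 0.00053). Mrpl33 had 50.5 and 47.6 CPM in Top1mt KO cells, against 37.0 and 33.1 CPM in Top1mt wild type (0.47 ± 0.07; limma adjusted p = 9.0e-06). Mrps18a had 22.7 and 24.3 CPM in Top1mt KO cells, against 17.5 and 17.9 CPM in Top1mt wild type (0.39 ± 0.08; limma adjusted p = 0.00036). All 3 had libraries that were apart. Mrps28, a small subunit protein, had 8.97 and 10.1 CPM in Top1mt KO cells, against 6.27 and 6.84 CPM in Top1mt wild type (0.48 ± 0.14; limma adjusted p = 0.0056), a call lost without replicate 2 of Top1mt KO (limma adjusted p = 0.0581). Without replicate 1 of Top1mt KO, 7 members were called higher in place of 12.

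Between the labelled KO comparisons at 1% oxygen in the Hif1a and Top1mt lines, which share no library, 4 members were called higher in both. These were Mrpl10, Mrpl27, Mrpl33 and Mrps34. As 4 of 77 members they were a smaller share than the 18.2% of all tested genes called higher in both. They made up 80.0% of the 5 members called higher in the Hif1a line and 33.3% of the 12 in the Top1mt line. Called lower in both were 22 of the 77 members, a share near the 27.7% of all tested genes. These made up 44.0% of the 50 members called lower in the Hif1a line and 88.0% of the 25 in the Top1mt line. After median-of-ratios scaling 11 of the 77 were called lower in both, all among the 22, where 19.1% of all genes were. They were Mrpl1, Mrpl16, Mrpl21, Mrpl35, Mrpl38, Mrpl47, Mrps5, Mrps6, Mrps18b, Mrps22 and Mrps27. Mrps2 was among those lost, with a scaled log2 fold change of 0.087 in the Hif1a line. The number called higher in both was 12 after scaling, the 4 among them, where 23.4% of all genes were. Mrpl20, Mrpl9 and Mrps24, all bacterial-type proteins, were called lower in the libraries labelled Hif1a KO and higher in Top1mt KO cells. Opposite calls in these comparisons were made for 4.05% of all genes. After median-of-ratios scaling Mrpl20 and Mrps24 were no longer called in the Hif1a line, where their log2 fold changes were 0.08 and -0.10. In Top1mt KO cells the call of Mrpl9 was lost without replicate 1 of either group (limma adjusted p = 0.0623 for Top1mt KO and 0.0507 for Top1mt wild type). That of Mrps24 was lost without replicate 1 of Top1mt KO (limma adjusted p = 0.155) or replicate 2 of Top1mt wild type (limma adjusted p = 0.0927). Among the genes called higher in both, that of Mrpl10 in the Top1mt line (0.16 ± 0.06; limma adjusted p = 0.029) was lost without either Top1mt KO library (limma adjusted p = 0.0897 and 0.0871) or replicate 1 of Top1mt wild type (limma adjusted p = 0.195). The call of Mrps34 there (0.32 ± 0.10; limma adjusted p = 0.0086) was lost without replicate 2 of Top1mt wild type (limma adjusted p = 0.0537). Across the 77 members the Spearman correlation of the log2 fold changes was 0.531, a description across genes. In both comparisons the KO-labelled group also held more feeder marker RNA and less germ cell marker RNA, and the part of this was not tested. The values of Mrpl44 in the Top1mt line were 34.9 and 38.2 CPM in Top1mt KO cells, against 39.98 and 37.4 CPM in Top1mt wild type, and the libraries overlapped.

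**Figure D4:**
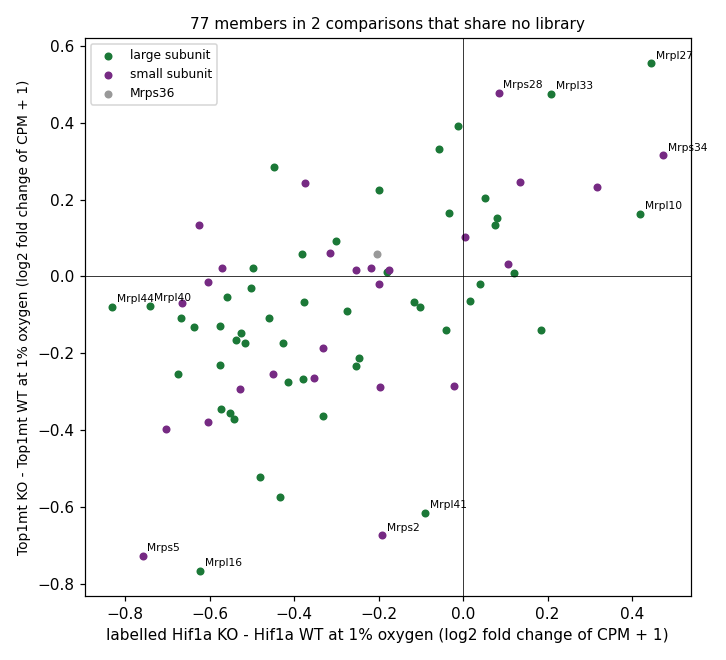
Log2 fold changes of CPM + 1 for the 77 tested members, libraries labelled Hif1a KO minus Hif1a wild type at 1% oxygen on the horizontal axis and Top1mt KO minus Top1mt wild type at 1% oxygen on the vertical axis (linear axes; points are genes, coloured by subunit). Mrpl10, Mrpl27, Mrpl33 and Mrps34 lie above 0 on both axes, Mrps5 and Mrpl16 far below 0 on both, and Mrpl44 lies at -0.83 on the horizontal axis and -0.08 on the vertical.

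Lines were also compared at a matched oxygen level. At 20% oxygen 18 of 77 members were called higher and 5 lower in Hif1a wild type than in DBA/2 cells, where 26.4% and 22.6% of all genes were called. The counts were 18 and 5 after median-of-ratios scaling as well, where 26.53% and 22.24% of all genes were called. Mrps34 led, at 14.6 and 16.9 CPM in Hif1a wild type, against 10.2 and 10.4 CPM in DBA/2 cells (log2 fold change 0.57 ± 0.10; limma adjusted p = 8.1e-05). Mrpl32 was the lowest, at 13.4 and 13.2 CPM in Hif1a wild type, against 17.2 and 17.2 CPM in DBA/2 cells (-0.35; limma adjusted p = 0.0067). The number called higher fell to 6 without replicate 1 of Hif1a wild type, to 11 without its replicate 2, to 10 without replicate 1 of DBA/2 and to 9 without its replicate 2. The number called lower was 3 without replicate 1 of Hif1a wild type. At 1% oxygen 12 members were called higher and 28 lower in Top1mt wild type than in DBA/2 cells, where 28.9% and 32.9% of all genes were called. After median-of-ratios scaling these counts were 19 higher and 16 lower, where 33.4% and 27.2% of all genes were called. Mrpl1 was lowest, at 29.2 and 31.0 CPM in Top1mt wild type, against 49.9 and 53.5 CPM in DBA/2 cells (-0.76 ± 0.09; limma adjusted p = 6.3e-07). Mrpl51 was highest, at 47.1 and 52.4 CPM in Top1mt wild type, against 36.0 and 35.4 CPM in DBA/2 cells (0.47; limma adjusted p = 7.5e-06). The number called lower was 16 without replicate 2 of DBA/2 at 1% and 18 without replicate 2 of Top1mt wild type. At 20% oxygen 15 of 24 feeder markers were called higher and 1 lower in Hif1a wild type than in DBA/2 cells, and they summed to 12177 CPM in Hif1a wild type and 8415 CPM in DBA/2 cells. At 1% oxygen 23 of the 24 were called higher and 1 lower in Top1mt wild type, with sums of 23271 CPM in Top1mt wild type and 7464 CPM in DBA/2 cells. Their part in the line comparisons was not tested. These comparisons share libraries with those above, and line, strain and set of libraries cannot be told apart in them.

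Both subunits were read separately. In the libraries labelled Hif1a KO at 1% against 20% oxygen, 40 of 50 tested large subunit members and 20 of 26 small subunit members were called lower, with medians of -0.47 and -0.49 on the log2 scale. Of all genes 54.7% were called lower there, with a median of -0.29. In Hif1a wild type the counts were 30 and 16, and the medians -0.22 and -0.23, where 34.6% of all genes were called lower with a median of -0.09. Among members with a bacterial counterpart 36 of 46 were called lower in the libraries labelled Hif1a KO, and among those specific to mitochondria 24 of 30. These counts are as deposited. With median-of-ratios scaling the members called lower in the libraries labelled Hif1a KO went from 60 to 35, and 13 were called higher. In Hif1a wild type those called lower went from 46 to 30. No test of a difference between the subunits was made. In all, 3 members, Mrpl13, Mrps33 and Mrps36, were called in none of the 10 comparisons, while Mrpl10, Mrpl16, Mrpl37, Mrpl45, Mrpl47, Mrps2 and Mrps5 were each called in 8.

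**Figure D5:**
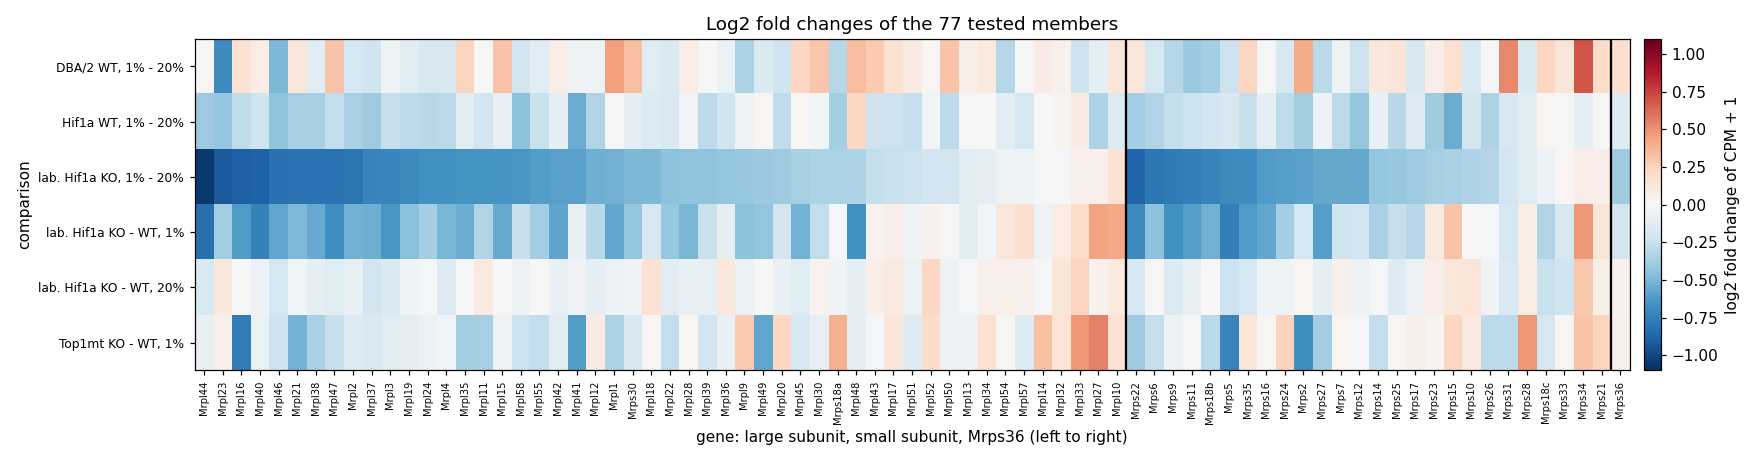
Log2 fold change of CPM + 1 (colour scale) of the 77 tested members (columns, large subunit, then small subunit, then Mrps36) in 6 comparisons (rows), sorted within a subunit by the fold change in the libraries labelled Hif1a KO between 1% and 20% oxygen. The rows for low oxygen in the Hif1a line are mostly blue in both subunits, from -1.06 for Mrpl44 upwards, and the DBA/2 row holds both colours.

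The 3 paralogues of one bacterial small subunit protein, Mrps18a, Mrps18b and Mrps18c, had calls in different directions. With low oxygen in DBA/2 cells Mrps18a had 18.9 and 20.6 CPM at 1% oxygen, against 24.95 and 24.5 CPM at 20% (log2 fold change -0.31 ± 0.08; limma adjusted p = 0.0028). Mrps18b fell as given above. Mrps18c, the one that keeps the place of the bacterial protein, had 28.9 and 27.3 CPM at 1%, against 23.5 and 24.02 CPM at 20% (0.23 ± 0.09; limma adjusted p = 0.031), a call lost without any 1 of the 4 libraries (limma adjusted p = 0.0511 to 0.166). In Top1mt KO cells Mrps18a rose and Mrps18b fell (-0.29 ± 0.08; limma adjusted p = 0.0037), and the call of Mrps18b was lost without replicate 2 of Top1mt KO (limma adjusted p = 0.121). In the libraries labelled Hif1a KO at 1% oxygen Mrps18b was lower than in Hif1a wild type (-0.53 ± 0.08; limma adjusted p = 5.3e-06).

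Among members with a known second role, Mrpl12, which also binds the mitochondrial RNA polymerase, had 58.0 and 62.2 CPM at 1% oxygen, against 61.3 and 63.9 CPM at 20%, in DBA/2 cells, where the libraries overlapped. For Hif1a wild type Mrpl12 had 56.5 and 55.4 CPM at 1%, against 72.5 and 69.1 CPM at 20% (log2 fold change -0.33 ± 0.06; limma adjusted p = 0.00025). Those labelled Hif1a KO had 42.8 and 47.7 CPM at 1%, against 64.9 and 67.4 CPM at 20% (-0.54 ± 0.06; limma adjusted p = 2.3e-07, and -0.18 on the log2 scale after median-of-ratios scaling). Mrps30, linked to programmed cell death and part of the large subunit despite its name, had 54.9 and 57.1 CPM at 1%, against 43.6 and 45.1 CPM at 20%, in DBA/2 cells (0.33 ± 0.09; limma adjusted p = 0.0030). In the libraries labelled Hif1a KO Mrps30 had 30.2 and 31.6 CPM at 1%, against 43.5 and 44.4 CPM at 20% (-0.50 ± 0.09; limma adjusted p = 3.0e-05), a call lost after median-of-ratios scaling (-0.14). Mrps36 had 2.88 to 5.41 CPM over all libraries and was called in no comparison.

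Genes that serve the same machine without carrying the name were read from lists. Of 25 assembly factors, 21 were called lower and 0 higher in the libraries labelled Hif1a KO at 1% against 20% oxygen, with a median log2 fold change of -0.62, where 54.7% of all genes were called lower and their median was -0.29. Of 17 mitochondrial aminoacyl-tRNA synthetases, which charge the tRNAs used there, 16 were called lower and 1 higher (median -0.62), and of 16 translation factors 13 were called lower and 0 higher (median -0.49). Counts, medians and fold changes in this paragraph are as deposited, and median-of-ratios scaling moved the median of all genes here to 0.02. After scaling the assembly factors summed to 591 CPM at 1% and 771 CPM at 20% in these libraries. The synthetases then summed to 667 CPM and 876 CPM, and the translation factors to 561 CPM and 680 CPM. Vars2, which charges valine, had 42.1 and 43.7 CPM at 1% oxygen in these libraries, against 83.7 and 89.0 CPM at 20% (log2 fold change -0.99 ± 0.06; limma adjusted p = 3.3e-12). Dhx30, an RNA helicase needed for mitoribosome assembly, had 107 and 107 CPM at 1%, against 199 and 201 CPM at 20% (-0.89 ± 0.05; limma adjusted p = 9.9e-13). The exception among the synthetases was Wars2, for tryptophan, with 8.53 and 9.20 CPM at 1%, against 6.20 and 6.16 CPM at 20% (0.46 ± 0.12; limma adjusted p = 0.0016). In Hif1a wild type 16 of the 25 assembly factors, 10 of the 17 synthetases and 10 of the 16 translation factors were called lower and 0 of any list higher, where 34.6% of all genes were called lower. Feeder markers called higher with low oxygen were 18 of 24 in Hif1a wild type and 23 of 24 in the libraries labelled Hif1a KO, and their part in these list counts was not tested. In Hif1a wild type Oxa1l, which inserts newly made proteins into the inner membrane, had 40.2 and 40.7 CPM at 1% oxygen, against 69.8 and 68.3 CPM at 20% (-0.76 ± 0.07; limma adjusted p = 1.4e-08).

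In DBA/2 cells 6 of the translation factors were called higher and 4 lower, 4 of the assembly factors higher and 4 lower, and 2 of the synthetases higher and 7 lower, where 31.8% and 25.5% of all genes were called. Of 5 mitoribosome proteins named outside the scheme 3 were called higher and 0 lower. One of them, Chchd1, a small subunit protein, had 20.4 and 19.8 CPM at 1% oxygen, against 11.7 and 12.2 CPM at 20% (log2 fold change 0.70 ± 0.09; limma adjusted p = 1.4e-06). Noa1, a GTPase of ribosome assembly, had 33.8 and 34.5 CPM at 1%, against 25.002 and 23.2 CPM at 20% (0.49 ± 0.07; limma adjusted p = 8.5e-06). Rbfa, which matures the small subunit RNA, was lower, at 76.7 and 86.6 CPM at 1%, against 128 and 131 CPM at 20% (-0.66 ± 0.07; limma adjusted p = 8.0e-08). Genes of the cytosolic ribosome were read beside them. Of 82 tested cytosolic ribosomal protein genes 68 were called higher and 3 lower at 1% oxygen in DBA/2 cells, with a median of 0.35, and their sum was 23920 CPM at 1% and 18585 CPM at 20%. All 7 tested genes of the mitochondrial genome were called higher as well in DBA/2 cells, with a median of 0.41. In Hif1a wild type 26 of the 82 were called higher and 3 lower, and 3 of the 7 higher and 0 lower. Of all genes 18.4% were called higher and 34.6% lower in that comparison. In the libraries labelled Hif1a KO 18 of the 82 were called higher and 35 lower with low oxygen, and 0 of the 7 higher and 6 lower. Of all genes 25.2% were called higher and 54.7% lower there. The direction of both sums depended on the scaling. As deposited the cytosolic genes summed to 19199 CPM at 1% oxygen and 20414 CPM at 20%. After median-of-ratios scaling they summed to 23717.5 CPM and 19554.6 CPM. Genes of the mitochondrial genome summed to 15137.5 CPM and 17888.9 CPM as deposited, and to 18697.8 CPM and 17137.3 CPM after scaling. Of the 13 listed, the remaining 6 did not reach the level for testing. In Hif1a wild type at 20% oxygen 5 of the 13 had no reads in either library, and in each other group 6 had none. Why they had none was not tested.

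In Top1mt KO cells at 1% oxygen 4 of 16 translation factors were called lower and 3 higher, 10 of 25 assembly factors lower and 5 higher, and 8 of 17 synthetases lower and 1 higher, where 33.2% and 25.2% of all genes were called. Trub2, a pseudouridine synthase of mitochondrial RNA, had 17.9 and 20.4 CPM in Top1mt KO cells, against 33.9 and 31.8 CPM in Top1mt wild type (log2 fold change -0.75 ± 0.09; limma adjusted p = 7.5e-07). Mrrf, which recycles the ribosome after termination, had 32.95 and 29.7 CPM in Top1mt KO cells, against 46.6 and 41.0 CPM in Top1mt wild type (-0.47 ± 0.08; limma adjusted p = 5.0e-05). Tsfm, the exchange factor of the elongation factor Tu, was higher, at 22.3 and 22.8 CPM in Top1mt KO cells, against 15.8 and 17.4 CPM in Top1mt wild type (0.42 ± 0.09; limma adjusted p = 0.00032). Among the 7 tested genes of the mitochondrial genome 2 were called lower and 0 higher.

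Gene length was set beside the fold changes. Over the 10 comparisons the Spearman correlation of the members' log2 fold changes with exon length ran between -0.310 and 0.143, the highest being that of low oxygen in DBA/2 cells. In the libraries labelled Hif1a KO against Hif1a wild type at 1% oxygen, the members' log2 fold changes had a Spearman correlation of -0.310 with exon length over 77 genes, beside -0.0735 over all genes with a length. Members with exons shorter than their median had a median log2 fold change of -0.205, and the longer ones -0.437. The part of length in the members' changes was not tested.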

How the data were processed

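RNA of 16 mouse GS cell libraries was measured with stranded poly(A) libraries, in 8 groups of 2 taken from the labels. The authors deposited CPM values per protein-coding gene. The submitters' processing notes name STAR 2.6.0c, cutadapt 1.16, HTSeq 0.11.2, DESeq2 1.22.2 and the mm10 build. The annotation and strand setting are not given in the sources used here, and GENCODE M21 was used for lengths, overlaps and positions. Whole reads were recovered from the deposited CPM steps for 100% of values (tolerance 0.01 reads), giving 11942104 to 25659895 reads per library. A single read was worth 0.0390 to 0.0837 CPM, and the floor of 3 reads, 0.117 to 0.251 CPM, covers counting error only.

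The 14841 genes that reached 1 CPM in 2 or more libraries were tested with limma 3.58.1 (R 4.3.3) on log2(CPM + 1), with 8 group means over all 16 libraries, a trended prior and Benjamini-Hochberg adjustment over all genes. Calls are at an adjusted p of 0.05. Alternatives were a pseudocount of 0.1 CPM, no filter, median-of-ratios scaling, edgeR 4.0.16 quasi-likelihood tests on the recovered reads, a replicate block and leaving out each library. The scripts were tested on simulated data. Named members are the 4 highest and 4 lowest called members of each comparison whose libraries do not overlap, those called alike or oppositely across the oxygen comparisons, the Mrps18 paralogues, members with a second role, and the extremes per kb. Members named outside this rule were chosen after their values were seen. The members and lists were chosen with earlier results of these data known. Same-numbered replicates correlated at -0.0635 to 0.274 after group means were removed, so the numbers were not taken to pair libraries.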

Additional observations from a re-analysis of the deposited data

Results flagged for a closer look

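The oxygen response of the libraries labelled Hif1a KO, in which Hif1a RNA was not lowered, differed from that of Hif1a wild type by a test of the difference itself for 5 named members. On the log2 scale the difference was 0.31 for Mrpl10, -0.68 for Mrpl40, -0.66 for Mrpl44, -0.62 for Mrpl16 and -0.57 for Mrpl48. In that test 41 of the 77 members were called lower and 1 higher, where 39% and 19% of all genes were. The oxygen response of Hif1a wild type differed from that of DBA/2 cells, by the same kind of test, for 6 named members. The difference was 0.32 for Mrpl33, 0.31 for Mrpl9, -0.80 for Mrps34, -0.79 for Mrps2, -0.72 for Mrps15 and -0.71 for Mrps31. Here 30 members were called lower and 2 higher, where 30.9% and 15.1% of all genes were. The calls of Mrpl33 and Mrpl9 were lost when single libraries were left out, as given above. Feeder marker sums differed between the same groups, and their part was not tested.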

How the results depend on the processing

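With median-of-ratios scaling, members called higher and lower with low oxygen numbered 2 and 30 in Hif1a wild type (median -0.13) and 13 and 35 in the libraries labelled Hif1a KO (median -0.10). The labelled Hif1a KO against wild type comparison at 1% oxygen gave 23 and 29 (median -0.056), the interaction 12 and 12 (median -0.040), and Top1mt wild type against DBA/2 cells 19 and 16 (median -0.027). The line difference gave 4 higher (median -0.077). edgeR on the recovered reads gave 2 and 29 (median -0.13), 12 and 36 (median -0.19), 19 and 31 (median -0.087), 7 and 18 (median -0.091), and 20 and 15 (median -0.024) for the same 5 comparisons in that order, 7 higher in the line difference (median -0.065), and a median of -0.038 in DBA/2 cells. Scaled sums were 2972 CPM in the libraries labelled Hif1a KO at 1% oxygen and 3283 CPM at 20%, 3085 CPM in Hif1a wild type at 1% and 3373 CPM at 20%, 3163 CPM in DBA/2 cells at 1% and 3247 CPM at 20%, and 2989 CPM in Top1mt KO and 3107 CPM in Top1mt wild type cells.

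The direction turned for Mrpl48 (0.011) and Mrps18a (0.0059) with low oxygen in the libraries labelled Hif1a KO under median-of-ratios scaling. At 1% oxygen against Hif1a wild type it turned for Mrpl20 (0.083 scaled, 0.045 with edgeR) and Mrps2 (0.087 scaled, 0.060 with edgeR). The cause was not tested.

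The replicate block called 5 members lower in the libraries labelled Hif1a KO at 20% oxygen in place of 2, and changed no other count by over 1.5 times. The numbers do not pair the libraries.

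Leaving out 1 library, members called higher and lower ranged as follows. DBA/2 oxygen gave 12 to 13 and 14 to 18 (median -0.03 to 0.02), Hif1a wild type oxygen 0 to 1 and 29 to 43 (median -0.26 to -0.21), and the libraries labelled Hif1a KO 0 to 1 and 58 to 60 (median -0.49 to -0.46). The labelled KO against Hif1a wild type gave 3 to 5 and 45 to 50 at 1% oxygen (median -0.36 to -0.29) and 0 to 2 and 0 to 3 at 20% (median -0.05 to -0.03). Top1mt KO gave 7 to 11 and 20 to 23 (median -0.10 to -0.07), the interaction 1 to 3 and 37 to 41 (median -0.32 to -0.27) and the line difference 0 to 3 and 23 to 31 (median -0.21 to -0.17). Hif1a wild type against DBA/2 cells gave 6 to 11 and 3 to 5 (median 0.053 to 0.087), and Top1mt wild type against DBA/2 cells 10 to 11 and 16 to 24 (median -0.11 to -0.07).

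Of 157 fold changes of single members, the pseudocount changed no call, the missing filter lost 3 calls and the block gained 3. Median-of-ratios scaling lost 15 calls with the direction kept, gained 6 and turned 4 directions. With edgeR 15 calls were lost with the direction kept, 5 were gained and 2 directions turned. The fold changes that turned were no longer called either, and they come on top of the 15. Leaving out 1 library lost 79 calls, gained 10 and left 639 values as they were called. With 2 libraries a group, differences within their spread were not detectable at this depth.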
